A study of Arabidopsis thaliana with 72 samples.

Results

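The enzymes that break down or inactivate jasmonates were followed as RNA levels in Arabidopsis thaliana seedlings. The set holds 10 genes, chosen by locus identifier out of the 27206 loci of the deposited count table: the jasmonate oxidases JOX1 (AT3G11180), JOX2 (AT5G05600), JOX3 (AT3G55970) and JOX4 (AT2G38240), the cytochrome P450 enzymes CYP94B1 (AT5G63450), CYP94B3 (AT3G48520) and CYP94C1 (AT2G27690), the amidohydrolases IAR3 (AT1G51760) and ILL6 (AT1G44350), and the sulfotransferase ST2A (AT5G07010). Whole seedlings came from the wild-type accession Col-0 and from the mutant phr1 phl1, in which the genes of a pair of MYB factors that drive the response to phosphate (Pi) starvation are mutated. They spent 7 days on Johnson medium with 1 mM Pi and 1% sucrose, and then 12 days on the same medium with either 1 mM Pi (high Pi) or 5 µM Pi (low Pi). This later medium carried no addition (untreated), 10 µM methyl jasmonate (MeJA), a volatile jasmonate that plants convert to the free acid, or flg22 at 1 µM, a flagellin fragment that plants sense as a sign of bacteria. This gives 12 groups, each of 6 libraries, 3 from each of 2 experiments here called A and B. All groups had days of 9 h light and 15 h dark.

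Jasmonic acid is made from membrane lipids and becomes active when it is joined to isoleucine as jasmonoyl-isoleucine, which the receptor COI1 senses together with the JAZ repressors. Release of the JAZ proteins lets factors such as MYC2 switch on defence genes, and among the genes switched on are enzymes that remove the signal again. Removal has several routes: the JOX enzymes hydroxylate free jasmonic acid, the CYP94 enzymes oxidise jasmonoyl-isoleucine, IAR3 and ILL6 cleave it back to jasmonic acid and isoleucine, and ST2A adds a sulfate to hydroxylated jasmonic acid.

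The 71 libraries used held between 692426 and 6883818 counts, with a median of 3789735. The group with the lowest median was Col-0 at high Pi with MeJA, at 1749954.5 counts (692426 to 2403150). The library given by its labels as B1 of the untreated mutant at high Pi was left out, so that group has 5 libraries, 2 of them from experiment B. Its labels do not match its RNA. PHR1 stood at 68.6 CPM (counts scaled to a library size adjusted between libraries) and PHL1 at 20.3 CPM, both inside the Col-0 range. The jasmonate-induced genes VSP2 and PDF1.2 stood at 211 and 818 CPM. In the libraries used, PHR1 ranged from 12.9 to 44.4 CPM in the mutant and from 49.0 to 74.0 CPM in Col-0. PHL1 ranged from 30.9 to 126.5 CPM in the mutant and from 6.59 to 20.3 CPM in Col-0, so each gene tells the genotypes apart, with PHL1 reads higher in the mutant. Marker genes of green tissue, root hair and root endodermis were present in every library, as whole seedlings should give, except that CASP5, an endodermis gene, was at 0 in 19 libraries. Since these are whole seedlings, fewer cells of a type and less RNA per cell cannot be told apart. The series' design text calls the 6 libraries of a group biological replicates; it does not say whether those of one experiment grew on separate plates, so p-values measure the spread between these libraries.

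MeJA raised 8 of the 9 members that could be tested, in both genotypes and at both phosphate levels. A gene passed the test at an adjusted p under 0.05 from edgeR's quasi-likelihood test, with Benjamini-Hochberg adjustment over all 18693 genes kept by the filter on low counts. Of all genes tested, 7.71% rose with MeJA in Col-0 at high Pi, 8.21% in Col-0 at low Pi, 9.92% in phr1 phl1 at high Pi and 9.97% in phr1 phl1 at low Pi. The median log2 change of the 9 members was 3.03, 2.86, 3.52 and 3.03 in that order, where the median of all genes tested was -0.03, -0.01, -0.02 and -0.02. JOX1 had too few reads for the filter, and CYP94B3 was the tested member that did not pass in any of the 4 backgrounds. Beside this, 2 of 6 green-tissue markers fell with MeJA in each background, 1 and 3 of 4 tested endodermis markers fell in Col-0 at high and low Pi, and 2 and 3 of 4 root-hair markers rose in the mutant at high and low Pi. Summed over each list in the order of backgrounds above, green-tissue markers averaged 45350, 48615, 36463 and 31964 CPM with MeJA against 50599, 51369, 41173 and 39634 CPM untreated; their part in the members' changes was not tested.

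**Figure D1:**
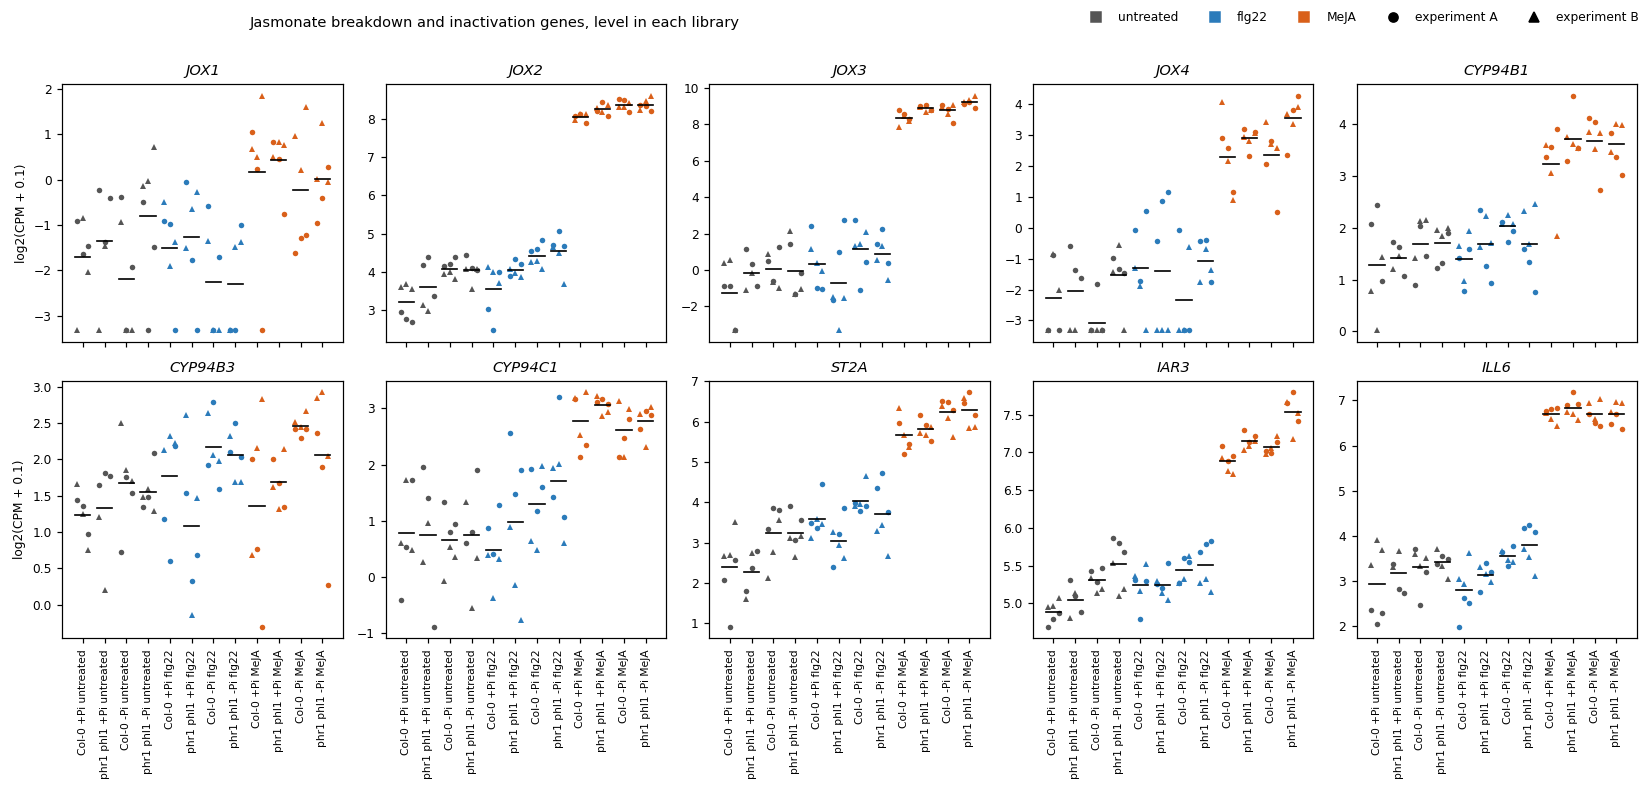
Level of each of the 10 genes in all 71 libraries, as log2(CPM + 0.1) on the y axis, by group on the x axis (+Pi is high Pi, -Pi is low Pi; circles are experiment A, triangles experiment B; the black line is the mean of the logged values). JOX2, JOX3, ST2A, IAR3 and ILL6 stand higher in all 24 MeJA libraries than in any of the other 47, whereas the CYP94B3 libraries overlap throughout. The share of all genes that separate in this way was not counted.

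JOX2 and JOX3 carried the highest levels of the set after MeJA. Both belong to a family of iron-dependent dioxygenases that turn jasmonic acid into its hydroxylated, inactive form. JOX2 lies on chromosome 5 and is covered by exons over 2395 bases. In Col-0 at high Pi the lowest, median and highest JOX2 library stood at 6.38, 9.67 and 12.8 CPM untreated and at 238, 273 and 281 CPM with MeJA, so the groups were far apart. The log2 change was 4.79 ± 0.19 (SE, n = 6 and 6, adjusted p = 2.3e-32). At low Pi the Col-0 libraries went from 13.9, 16.8 and 20.8 CPM to 292, 328 and 364 CPM, a log2 change of 4.27 ± 0.18. In phr1 phl1 at high Pi the 5 untreated libraries held 18.0, 20.8 and 10.4 CPM in experiment A and 8.81 and 7.89 CPM in experiment B, against 270.5, 304 and 348 CPM as lowest, median and highest with MeJA. At low Pi the mutant went from 11.7, 16.7 and 21.9 CPM to 296, 324 and 386 CPM. The mutant changes were 4.51 ± 0.20 and 4.29 ± 0.18, and in no background did a MeJA library reach down to an untreated one.

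JOX3 went from almost no reads to the highest level of the set. Its untreated libraries in Col-0 at high Pi had a lowest, median and highest level of 0, 0.441 and 1.37 CPM, and with MeJA these were 233, 329.8 and 448 CPM. The log2 change of 9.33 ± 0.48 (adjusted p = 4.6e-25) was the largest of any member, and it was 8.60 ± 0.44 in Col-0 at low Pi, 8.79 ± 0.48 in phr1 phl1 at high Pi and 8.70 ± 0.43 in phr1 phl1 at low Pi. With so few untreated reads, these standard errors may be too small. With MeJA, JOX3 reached means of 447 ± 105 CPM (SD, n = 6) in Col-0 at low Pi, 474 ± 48.9 CPM in the mutant at high Pi and 605 ± 89.3 CPM in the mutant at low Pi. Over all 24 MeJA libraries it stood between 233 and 752 CPM, and over the other 47 between 0 and 6.64 CPM.

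JOX4 and JOX1, the other hydroxylases of the family, stayed low. JOX4 had a lowest, median and highest level of 1.75, 5.12 and 16.6 CPM with MeJA in Col-0 at high Pi, against 0, 0.0724 and 0.456 CPM untreated, a log2 change of 4.97 ± 0.70 (adjusted p = 3.8e-08). In phr1 phl1 the changes were 4.75 ± 0.58 at high Pi and 5.19 ± 0.52 at low Pi. As for JOX3, the standard errors of these JOX4 changes may be too small. In untreated Col-0 at low Pi a single JOX4 read was counted over 6 libraries, against 155 with MeJA, a ratio of rates of 165.6 with a 95% exact interval of 29.28 to 6581 that covers counting error only. Of the 24 MeJA libraries, 22 stood above every other library for this gene. JOX1 gave 100 counts over the 24 MeJA libraries together, or 1.15 CPM, and 61 counts over the other 47, or 0.307 CPM. These pooled values are over summed library totals without scaling between libraries. The libraries of these sets overlapped. Without the filter on low counts its log2 change with MeJA was 2.58 ± 0.73 in Col-0 at high Pi (adjusted p = 0.0113), 2.23 ± 0.68 in Col-0 at low Pi (adjusted p = 0.0183), 1.46 ± 0.58 in the mutant at high Pi (adjusted p = 0.0815) and 0.72 ± 0.57 in the mutant at low Pi (adjusted p = 0.501). JOX1 thus passed in both Col-0 backgrounds and missed the threshold in both mutant backgrounds. Passing in one genotype and not in the other is not a test of their difference.

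The sequences just upstream of JOX1, JOX3 and CYP94B3 are shown because JOX3 rose most, CYP94B3 did not pass, and JOX1 and JOX3 are the members that hold letters of the boxes bound by MYC2 and its relatives. Each is the 300 bases before the annotated start in the TAIR10.1 assembly, 5′ to 3′ on the strand of the gene, at chr3:3503617-3503916 on the plus strand for JOX1, chr3:20769411-20769710 on the minus strand for JOX3 and chr3:17976775-17977074 on the minus strand for CYP94B3. Capitals mark the G-box CACGTG and the related box AACGTG, read on both strands, so that CACGTT is the second box on the other strand.
JOX1: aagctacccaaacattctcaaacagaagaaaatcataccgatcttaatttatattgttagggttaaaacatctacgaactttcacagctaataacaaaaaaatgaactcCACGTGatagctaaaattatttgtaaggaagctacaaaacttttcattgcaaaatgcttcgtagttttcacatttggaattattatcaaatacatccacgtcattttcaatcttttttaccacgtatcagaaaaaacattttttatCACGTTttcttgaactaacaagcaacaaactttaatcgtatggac
JOX3: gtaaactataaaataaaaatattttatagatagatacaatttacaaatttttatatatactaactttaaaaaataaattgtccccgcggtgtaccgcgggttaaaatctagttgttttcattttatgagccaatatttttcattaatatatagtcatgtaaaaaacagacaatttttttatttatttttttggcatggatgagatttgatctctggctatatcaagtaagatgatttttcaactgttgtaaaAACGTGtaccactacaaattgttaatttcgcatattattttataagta
CYP94B3: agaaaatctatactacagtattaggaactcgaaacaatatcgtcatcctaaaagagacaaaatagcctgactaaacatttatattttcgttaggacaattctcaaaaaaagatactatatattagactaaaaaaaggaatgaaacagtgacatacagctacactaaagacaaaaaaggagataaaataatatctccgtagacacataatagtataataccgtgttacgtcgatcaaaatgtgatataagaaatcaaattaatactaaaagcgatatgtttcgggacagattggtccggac
The G-box began 191 bases and the second box 45 bases before the start of JOX1, and the second box began 48 bases before the start of JOX3. CACGTG was found in 1 of the 10 windows and in 7.09% of 27443 such windows over the genome. AACGTG was found in 2 of the 10 and in 8.71% of all windows. The element bound by PHR1, searched as GNATATNC, was found in 0 of the 10 and in 6.5% of all windows. No match says only that these letters are not in this window.

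CYP94B1, CYP94B3 and CYP94C1, the enzymes that oxidise jasmonoyl-isoleucine, were low throughout and split in their response. CYP94B1 and CYP94B3 hydroxylate the conjugate, and CYP94C1 carries the oxidation on to a carboxyl group. In Col-0 at high Pi, CYP94B1 had a lowest, median and highest level of 0.913, 2.23 and 5.37 CPM untreated and of 3.50, 11.0 and 14.9 CPM with MeJA. These groups overlapped, and the log2 change was 1.8 ± 0.30 (adjusted p = 3.7e-06), with 2.03 ± 0.26 in Col-0 at low Pi, 2.34 ± 0.28 in the mutant at high Pi and 1.99 ± 0.27 in the mutant at low Pi. CYP94C1 went from 0.653, 1.38 and 3.20 CPM to 4.28, 7.25 and 9.62 CPM in Col-0 at high Pi, which do not overlap. Its log2 change was 1.98 ± 0.41 (adjusted p = 0.00017), and 1.98 ± 0.36, 2.05 ± 0.35 and 1.93 ± 0.36 in the other backgrounds in the same order. CYP94B3 had 1.59, 2.37 and 3.05 CPM untreated and 0.710, 2.77 and 7.00 CPM with MeJA, so its MeJA libraries reached both below and above the untreated ones. This MeJA group had the lowest median depth, and its 6 libraries together held 31 counts of CYP94B3 and 95 of CYP94B1. Counting error is thus part of the spread of both genes there. Its log2 differences were 0.51 ± 0.40 (adjusted p = 0.48), 0.76 ± 0.30 (0.077), 0.18 ± 0.33 (0.78) and 0.69 ± 0.31 (0.12) over the 4 backgrounds. At low Pi CYP94B3 passed under some alternatives: in Col-0 without the libraries numbered B1 (0.91 ± 0.31, adjusted p = 0.047), and in the mutant in experiment B alone (1.24 ± 0.41, adjusted p = 0.033) and without those numbered A3 (1.03 ± 0.32, adjusted p = 0.020). Of the 24 MeJA libraries, 23 stood above every other library for CYP94B1, 2 for CYP94C1 and 3 for CYP94B3. The count for CYP94C1 is set by 1 flg22 library, phr1 phl1 low Pi A2, at 9.10 CPM. Against the untreated libraries of the same background, the MeJA libraries of CYP94C1 did not overlap in any of the 4 backgrounds.

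The amidohydrolases IAR3 and ILL6 rose from clearly measured levels. Both return jasmonic acid from jasmonoyl-isoleucine, and IAR3 is also known for releasing auxin from its alanine conjugate. IAR3 had the highest level of the set in untreated seedlings, with a lowest, median and highest of 25.7, 30.1 and 33.4 CPM in Col-0 at high Pi, and reached 105, 119.9 and 136 CPM with MeJA. The log2 change of 1.99 ± 0.11 (adjusted p = 1.8e-24) had the smallest standard error of the set, and the other backgrounds gave 1.77 ± 0.11, 2.11 ± 0.12 and 2.0 ± 0.11. ILL6 went from 4.03, 7.59 and 15.1 CPM to 86.6, 107 and 114 CPM in Col-0 at high Pi, a log2 change of 3.63 ± 0.20 (adjusted p = 4.6e-25), with 3.38 ± 0.19, 3.65 ± 0.21 and 3.26 ± 0.19 elsewhere. Neither gene's 24 MeJA libraries overlapped the other 47: IAR3 stood at 105 to 222 CPM against 25.7 to 58.3 CPM, and ILL6 at 83.1 to 145 CPM against 3.88 to 18.9 CPM. The group means of ILL6 with MeJA lay between 104 and 115 CPM in all 4 backgrounds, closer together than the libraries of a group.

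ST2A, which sulfates hydroxylated jasmonic acid, also separated the MeJA libraries from all others. In Col-0 at high Pi its lowest, median and highest levels were 1.79, 6.08 and 11.3 CPM untreated and 36.9, 46.9 and 81.3 CPM with MeJA. The log2 change was 3.03 ± 0.29 (adjusted p = 1.1e-13), and 2.86 ± 0.25, 3.52 ± 0.30 and 3.03 ± 0.26 in the other backgrounds. Its neighbour ST2B (AT5G07000), a close relative, changed by 0.14 ± 0.15 (adjusted p = 0.6) in Col-0 at high Pi and by 0.64 ± 0.15 (adjusted p = 0.00072) in phr1 phl1 at low Pi. Of the 1730 windows of 50 exonic bases in ST2A, 4 (0.231%) occur elsewhere in the genome as exact matches, and 0 do in the other 9 members. Sharing of reads with similar but not identical sequences was not tested.

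The MeJA response of the 8 genes held in each experiment. In experiment A alone all 8 passed in all 4 backgrounds, where 12.6%, 11.3%, 15.0% and 9.13% of all genes passed in either direction. In experiment B alone they did so too, beside 8.75%, 10.5%, 11.6% and 16.3% of all genes. The largest adjusted p was 0.0374, for CYP94C1 in A. The size differed between the experiments for 1 of 9 members, ILL6 in Col-0 at high Pi, where the log2 change was 4.59 in A and 2.94 in B, a difference of -1.65 ± 0.28 (adjusted p = 5.1e-05; 2.11% of all genes passed this test). Its untreated mean was 4.61 CPM in A and 12.7 CPM in B, whereas its MeJA means were 111 and 95.9 CPM. In the other 3 backgrounds 0 of 9 members passed this test, by which 0.0107%, 0.952% and 0.0802% of all genes passed, and 0, 2 and 0 members had an unadjusted p under 0.05. Including the library that goes against its label lowered the mutant's high-Pi change to 2.66 ± 0.39 for JOX2, 3.55 ± 0.66 for JOX3 and 2.45 ± 0.31 for ILL6, and all 8 still passed.

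**Figure D2:**
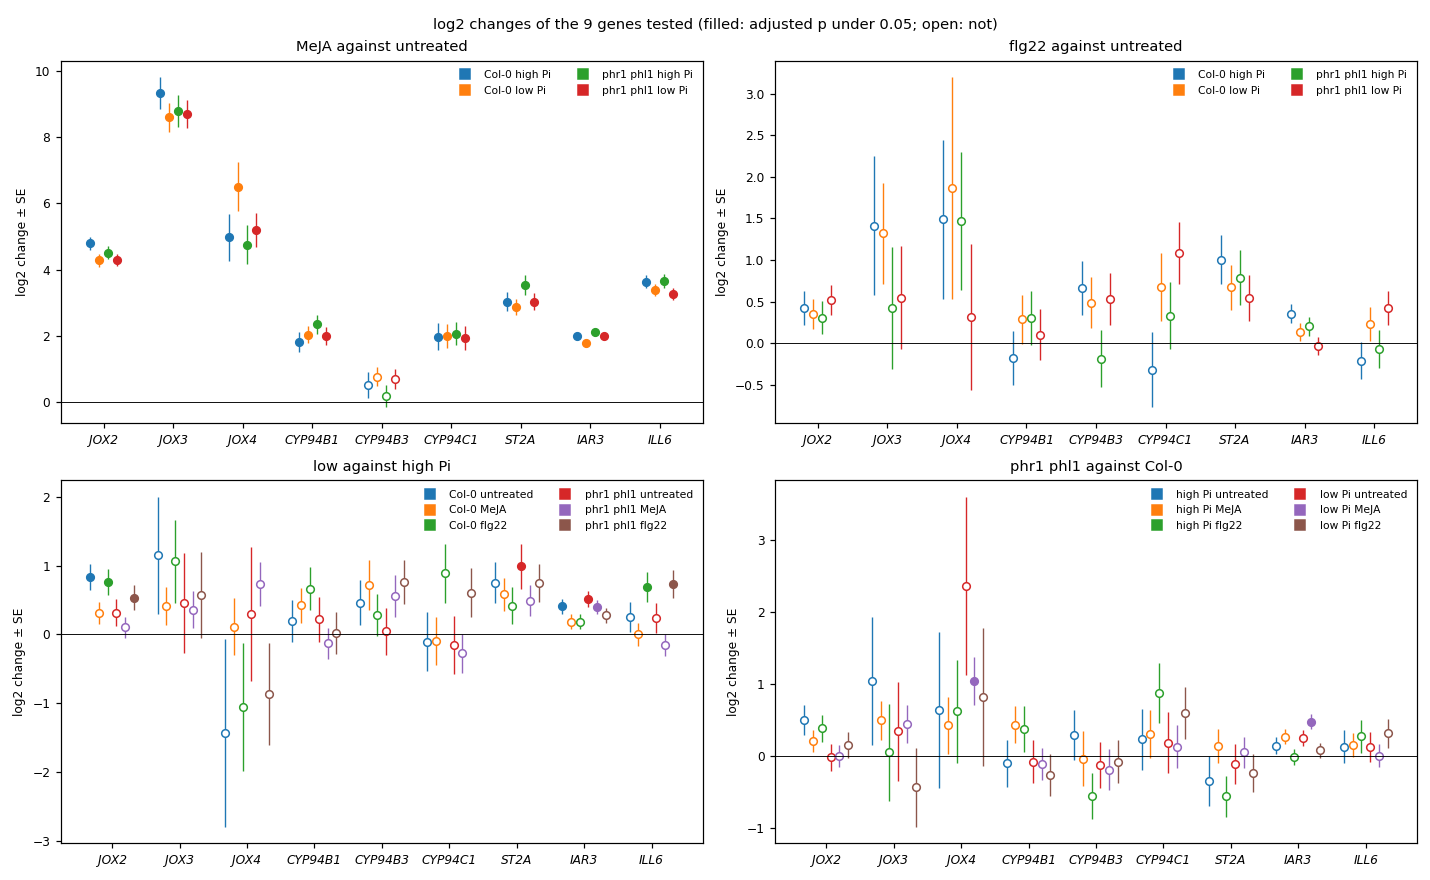
log2 change ± SE (y axis) of the 9 members tested (x axis), in 4 panels for MeJA against untreated, flg22 against untreated, low against high Pi, and phr1 phl1 against Col-0, with each panel on its own scale and colours for the background; filled points passed at an adjusted p under 0.05. The MeJA panel is filled for all members but CYP94B3, and the flg22 panel has no filled point; the JOX4 values against untreated Col-0 at low Pi rest on 1 read there.

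Read per kilobase of exon, which allows levels of different genes to be set side by side, the make-up of the set changed with MeJA. The summed level of the 10 genes was 31.5 ± 5.52 CPM per kb (SD, n = 6) in untreated Col-0 at high Pi and 421 ± 41.0 with MeJA. At low Pi it went from 43.9 ± 3.77 to 524 ± 65.1 in Col-0, and in phr1 phl1 from 35.1 ± 5.85 to 526 ± 41.8 at high Pi and from 48.3 ± 8.49 to 632 ± 59.4 at low Pi. Without MeJA, IAR3 was first in all 8 groups, with 43.6% to 53.2% of the summed level. With MeJA, JOX3 was first in all 4 groups with 36.4% (Col-0 high Pi), 38.8% (Col-0 low Pi), 41.5% (mutant high Pi) and 44.0% (mutant low Pi), followed by JOX2 with 21.9% to 26.5% and IAR3 with 14.4% to 16.4%. ILL6 held 7.23% to 10.8% and ST2A 6.04% to 8.39% in these 4 groups.

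**Figure D3:**
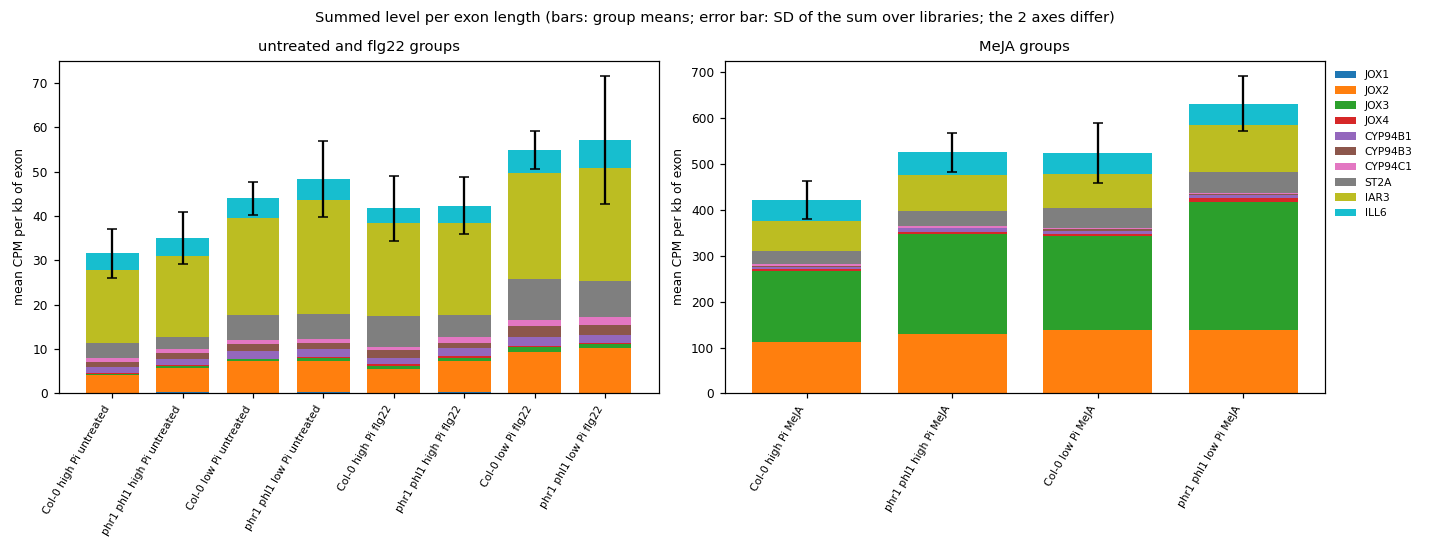
Stacked group means of the 10 genes in CPM per kb of exon (y axis) for the 8 groups without MeJA (left) and the 4 with MeJA (right), on axes of different scale; the error bar is the SD of the sum over libraries. IAR3 takes the largest share of each bar on the left and JOX3 of each bar on the right.

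The rest of the jasmonate pathway moved with MeJA to differing degrees. Of 13 tested relatives and other enzymes that modify jasmonates, 6, 6, 7 and 7 rose in the 4 backgrounds (Col-0 high Pi, Col-0 low Pi, mutant high Pi, mutant low Pi) and 0 fell, with medians of 0.48, 0.38, 0.47 and 0.48. In Col-0 at high Pi these included MES1, an esterase that acts on methyl jasmonate (3.88 ± 0.25), CYP94B2 (3.26 ± 0.33), the amidohydrolase ILR1 (1.90 ± 0.14) and the methyltransferase JMT, which makes methyl jasmonate (1.25 ± 0.39). Of 15 tested synthesis genes, 12, 12, 12 and 13 rose, with medians of 2.22, 1.71, 1.88 and 2.07. They were led in Col-0 at high Pi by the cyclases AOC2 (6.59 ± 0.34) and AOC1 (4.98 ± 0.21), the lipoxygenase LOX2 (5.53 ± 0.39) and the synthase AOS (3.84 ± 0.27). Of 11 tested JAZ repressors, 10 rose in each background, with medians of 3.13, 3.16, 2.76 and 2.96, among them JAZ5 (5.60 ± 0.33), JAZ10 (5.20 ± 0.16), JAZ7 (5.16 ± 0.69) and JAZ1 (3.45 ± 0.17). Of 8 genes for the receptor and transcription factors 4, 6, 5 and 6 rose, with MYC2 at 2.67 ± 0.15, and MYC4 fell by 0.47 in Col-0 at high Pi (log2, SE 0.16, adjusted p = 0.04). ILL5, DAD1, JAZ8 and JAZ13 had too few reads to be tested.

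**Figure D4:**
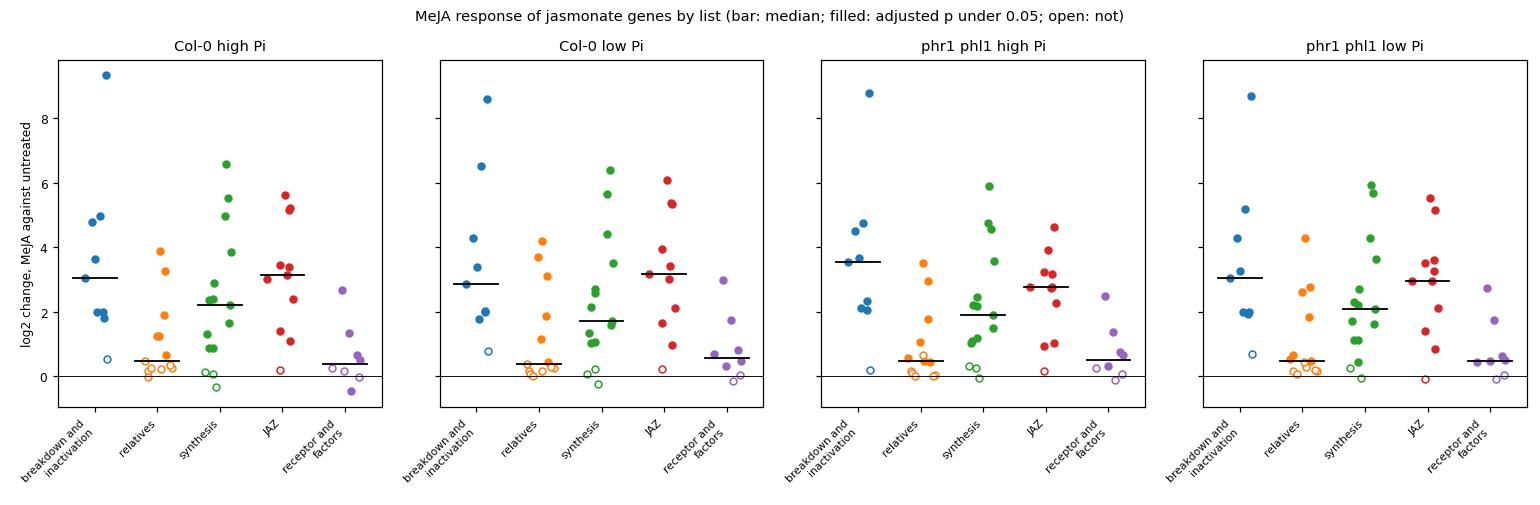
log2 change with MeJA against untreated (y axis) of each tested gene in 5 lists (x axis), one panel for each background; bars are medians and filled points passed at an adjusted p under 0.05. The medians of the breakdown and inactivation genes (2.86 to 3.52) and of the JAZ repressors (2.76 to 3.16) stand above those of the relatives (0.38 to 0.48); the lists were not tested against each other.

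For flg22, 0 of the 9 members passed in any background. By the same test 0.979% of all genes changed with flg22 in Col-0 at high Pi, 4.45% in Col-0 at low Pi, 4.62% in the mutant at high Pi and 3.38% in the mutant at low Pi. At an unadjusted p under 0.05 there were 4, 2, 1 and 3 of 9 members in that order, and DESeq2 called 1, 0, 0 and 0. The shares of all genes above are at the adjusted threshold. At an unadjusted p under 0.05 that share was not counted, so these member counts have no base to be set against. The gene called by DESeq2 was ST2A in Col-0 at high Pi, with a log2 difference of 1.01. Its libraries stood at 8.52, 11.0 and 21.7 CPM (lowest, median, highest) with flg22 against 1.79, 6.08 and 11.3 CPM untreated, which overlap, and edgeR gave 1.00 ± 0.29 (adjusted p = 0.077). In experiment A alone this difference was 1.96 ± 0.42 and passed, as 8.77% of all genes did, and in experiment B alone it was 0.33 ± 0.33 (adjusted p = 0.91). The difference between the experiments, B minus A, was -1.61 ± 0.56 (adjusted p = 0.10). JOX2 had a median of 14.5 CPM with flg22 against 9.67 CPM untreated in Col-0 at high Pi and 25.2 against 16.7 CPM in the mutant at low Pi, with log2 differences of 0.42 ± 0.20 (adjusted p = 0.35) and 0.52 ± 0.18 (adjusted p = 0.098). The median difference of the 9 members was 0.42, 0.49, 0.31 and 0.52, beside -0.01, 0.00, -0.01 and -0.01 over all genes tested. The flg22 and MeJA comparisons share their untreated libraries. Of the 47 other jasmonate genes tested, 0, 2, 3 and 2 rose with flg22 in the 4 backgrounds and 0, 0, 1 and 0 fell. At low Pi LOX2 rose by 1.14 ± 0.34 in Col-0 (adjusted p = 0.039) and 1.36 ± 0.34 in the mutant (adjusted p = 0.011), and MES1 rose by 1.12 ± 0.28 in the mutant (adjusted p = 0.013). In the mutant at high Pi the repressor gene JAZ5 fell by 1.70 (log2, SE 0.47, adjusted p = 0.023), whereas the lipoxygenase LOX6 rose by 0.47 ± 0.13 and KAT2, a thiolase of beta-oxidation, by 0.46 ± 0.13. MYC3, a relative of MYC2, rose by 0.38 ± 0.11 in Col-0 at low Pi and by 0.39 ± 0.12 in the mutant at high Pi.

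Low phosphate raised JOX2, IAR3, ILL6 or ST2A in 5 of the 6 comparisons with high phosphate, with log2 changes of 0.40 to 0.99 when both experiments were fitted together. In untreated Col-0, JOX2 had a lowest, median and highest level of 13.9, 16.8 and 20.8 CPM at low Pi against 6.38, 9.67 and 12.8 CPM at high Pi, and IAR3 35, 39.6 and 44.1 CPM against 25.7, 30.1 and 33.4 CPM. Neither gene's low-Pi libraries overlapped its high-Pi libraries, and the share of all genes without such overlap was not counted. The log2 changes were 0.83 ± 0.20 for JOX2 (adjusted p = 0.0020) and 0.41 ± 0.11 for IAR3 (adjusted p = 0.0077), so 2 of 9 members rose where 7.07% of all genes did. In untreated phr1 phl1, IAR3 rose by 0.51 ± 0.12 (adjusted p = 0.0018) and ST2A by 0.99 ± 0.33 (adjusted p = 0.037), 2 of 9 beside 6.65% of all genes. ST2A stood at 3.42, 5.12 and 6.84 CPM (A) and 2.94 and 6.57 CPM (B) at high Pi in the mutant and at 6.14, 8.80 and 15.0 CPM (lowest, median, highest) at low Pi, where 5 of 6 libraries lay above all 5 at high Pi.

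With MeJA present, 0 of 9 members passed between low and high Pi in Col-0 (2.65% of all genes rose and 5.38% passed in either direction; 1 member had an unadjusted p under 0.05, and DESeq2 called 0). In the mutant, IAR3 rose by 0.40 ± 0.10 (adjusted p = 0.014; 2.12% of all genes rose), from 130.2, 141 and 157 CPM to 145, 192 and 222 CPM. With flg22 present, JOX2 rose by 0.76 ± 0.19 (adjusted p = 0.0037) and ILL6 by 0.69 ± 0.22 (adjusted p = 0.024) in Col-0, where 7.89% of all genes rose. In the mutant with flg22, ILL6 rose by 0.73 ± 0.21 (adjusted p = 0.017) and JOX2 by 0.53 ± 0.18 (adjusted p = 0.047), beside 4.75% of all genes. ILL6 had a lowest, median and highest level of 10.0, 11.7 and 13.6 CPM at low Pi against 3.88, 6.85 and 12.3 CPM at high Pi in Col-0 with flg22, and 8.55, 15.0 and 18.9 CPM against 6.69, 8.97 and 10.5 CPM in the mutant.

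These low-Pi changes passed in experiment A and not in experiment B. Taken in experiment A alone, 4, 2, 1, 2, 2 and 5 of 9 members passed (Col-0 untreated, mutant untreated, Col-0 MeJA, mutant MeJA, Col-0 flg22, mutant flg22), and 1 of the 2 in the mutant with MeJA fell. Many genes did so in that experiment: 33.8%, 27.6%, 19.7%, 9.68%, 26.0% and 20.3% of all genes passed in the same order. In experiment B alone 0 members passed in any of the 6, and 0.559%, 0.718%, 0.277%, 1.55%, 2.06% and 0.309% of all genes did. In untreated Col-0, JOX2 differed by 1.48 ± 0.25 in A (adjusted p = 1.4e-05) and by 0.29 ± 0.19 in B (adjusted p = 0.88), and IAR3 by 0.64 ± 0.14 in A (adjusted p = 0.00036) and 0.20 ± 0.15 in B (adjusted p = 0.92). In the untreated mutant the IAR3 values were 0.71 ± 0.13 in A and 0.28 ± 0.17 in B, and those of ST2A were 1.2 ± 0.38 and 0.64 ± 0.47. With flg22 in Col-0, JOX2 gave 1.33 ± 0.24 in A and 0.25 ± 0.18 in B, and ILL6 gave 1.17 ± 0.24 and 0.30 ± 0.20. With flg22 in the mutant, ILL6 gave 1.05 ± 0.20 in A and 0.34 ± 0.20 in B, and JOX2 gave 0.69 ± 0.22 and 0.38 ± 0.18. IAR3 in the mutant with MeJA gave 0.41 ± 0.12 in A and 0.39 ± 0.13 in B (adjusted p = 0.16). The direction was upward in both experiments for each of these 9 changes. With both experiments fitted, 0 members passed in untreated Col-0 when the libraries numbered A3 were left out, and 0 in the mutant with flg22 without A1, without A2 or without A3.

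The difference between the experiments was itself tested with one term for each group in each experiment, a test chosen after these values were seen. In untreated Col-0 it passed for ILL6 (B minus A: -1.14 ± 0.31, adjusted p = 0.0065), JOX2 (-1.15 ± 0.32, adjusted p = 0.0074) and ST2A (-1.79 ± 0.57, adjusted p = 0.022), 3 of 9 members where 15.3% of all genes passed. With flg22 in Col-0 it passed for JOX2 (-1.07 ± 0.30, adjusted p = 0.016; 7.76% of all genes), and with MeJA in the mutant for ILL6 (0.71 ± 0.20, adjusted p = 0.033; 2.76% of all genes). It passed for 0 of 9 members in the untreated mutant, in Col-0 with MeJA and in the mutant with flg22, where 10.3%, 6.48% and 3.0% of all genes passed and 1, 1 and 2 members had an unadjusted p under 0.05. The untreated Col-0 means at high Pi show the split: JOX2 averaged 6.90 CPM in A and 12.2 CPM in B, ILL6 4.61 and 12.7 CPM, and ST2A 3.92 and 8.0 CPM, while at low Pi JOX2 averaged 18.9 and 15.1 CPM. Root-hair markers moved with low Pi as well: 4 of 4 rose in untreated Col-0, their sum ranging from 74.5 to 158.6 CPM at low Pi and from 45.3 to 75.4 CPM at high Pi, and 2 of 4 tested endodermis markers rose there, from a sum of 31.1 to 52.6 CPM at high Pi to 45.7 to 79.6 CPM. Neither list had a gene that passed in the untreated mutant, and 1 of 6 green-tissue markers rose in untreated Col-0 and 1 fell in the untreated mutant. The part of these markers in the changes of JOX2, IAR3 and ST2A was not tested. Of the 47 other jasmonate genes tested, 1 rose and 4 fell with low Pi in untreated Col-0, and 4 rose and 7 fell in the untreated mutant. AOC1 rose in untreated Col-0 (0.69 ± 0.22, adjusted p = 0.024) and in the untreated mutant (1.01 ± 0.23, adjusted p = 0.0021), whereas LOX2 fell by 1.18 (log2, SE 0.34) and 1.19 (SE 0.35) and JMT fell by 2.89 (SE 0.53) and 2.18 (SE 0.53). Of the 11 tested JAZ repressors, 0 rose and 0 fell in untreated Col-0, with 1 at an unadjusted p under 0.05. In the untreated mutant 0 rose and 3 fell, with 6 at an unadjusted p under 0.05: JAZ5 by 1.51 (log2, SE 0.46, adjusted p = 0.023), JAZ10 by 0.61 (SE 0.21) and JAZ6 by 0.53 (SE 0.18).

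Between the genotypes, members differed in 1 of 6 conditions. At low Pi with MeJA, IAR3 was higher in phr1 phl1 than in Col-0 by 0.48 ± 0.10 (log2, adjusted p = 0.00088) and JOX4 by 1.04 ± 0.33 (adjusted p = 0.049), 2 of 9 members where 3.72% of all genes were higher. IAR3 stood at 145, 192 and 222 CPM (lowest, median, highest) in the mutant and at 126, 132 and 149 CPM in Col-0, so that the groups overlapped at their edge. JOX4 stood at 5.03, 13.4 and 19.2 CPM against 1.31, 6.15 and 10.8 CPM. Within the experiments IAR3 differed by 0.56 ± 0.12 in A (adjusted p = 0.0047) and 0.39 ± 0.13 in B (adjusted p = 0.083), and JOX4 by 1.44 ± 0.44 in A (adjusted p = 0.079) and 0.68 ± 0.36 in B (adjusted p = 0.33). Of all genes, 2.16% passed in A and 4.62% in B. The JOX4 value lies just under the threshold and did not pass with DESeq2, without the filter on low counts, without the term for experiment or with a replicate block. In the same comparison 5 of 6 green-tissue markers were lower in the mutant, with sums of 28470 to 35605 CPM against 34336 to 82170 CPM in Col-0; their part in the differences of IAR3 and JOX4 was not tested.

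In the other 5 conditions 0 of 9 members passed between the genotypes by edgeR, where 0.0642% (high Pi untreated), 3.69% (low Pi untreated), 0.134% (high Pi MeJA), 0.177% (high Pi flg22) and 0.476% (low Pi flg22) of all genes did. At an unadjusted p under 0.05 there were 1, 1, 1, 1 and 0 members, and DESeq2 called 0 in each. JOX2 in untreated seedlings at high Pi differed by 0.50 ± 0.21 (adjusted p = 0.65) over both experiments, and by 1.26 in A and -0.55 in B, a difference between the experiments of -1.81 ± 0.36 (adjusted p = 0.0028; 0.481% of all genes passed that test). Its libraries of experiment A held 18.0, 20.8 and 10.4 CPM in the mutant, with a Col-0 mean of 6.90 CPM, and those of experiment B 8.81 and 7.89 CPM, with a Col-0 mean of 12.2 CPM. JOX4 had 8 counts in the untreated mutant at low Pi and 1 in Col-0, a ratio of rates of 9.227 with a 95% exact interval of 1.237 to 409.4 for counting error only, and its adjusted p was 0.39. Including the library that goes against its label made 4 members pass at high Pi untreated, with JOX2 at 2.36, JOX3 at 6.32, ILL6 at 1.36 and IAR3 at 0.62. The share of all genes that passed with that library is not given here, so this count is no result about the members.

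Whether one factor altered the response to another was tested with 9 interactions, and 0 of 9 members passed in any of them. Of all genes, 0.519% passed for the genotypes' difference in the low-Pi response, and 0, 0.0107% or 0.0160% in the other 8. At an unadjusted p under 0.05 there was 1 member in 1 of the 9: the MeJA response of JOX2 in Col-0 was smaller at low Pi than at high Pi by a log2 difference of -0.52 ± 0.25 (adjusted p = 1). The MeJA response of the mutant minus that of Col-0 was -0.29 ± 0.26 for JOX2, -0.54 ± 0.90 for JOX3, 0.49 ± 0.42 for ST2A, 0.12 ± 0.16 for IAR3 and 0.02 ± 0.29 for ILL6 at high Pi. At low Pi it was 0.02 ± 0.24, 0.10 ± 0.82, 0.16 ± 0.36, 0.23 ± 0.15 and -0.12 ± 0.26 in the same order. The standard errors of JOX3 and JOX4 (-1.32 ± 1.14 at low Pi) are wide, with few reads in their untreated libraries, so sizeable differences between genotypes would not be detectable for them at this depth.

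Set in order of group mean, every member but CYP94B3 had the 4 MeJA groups on top. Of IAR3, the MeJA groups ran from Col-0 high Pi (119 ± 11.4 CPM) over Col-0 low Pi (134 ± 8.87 CPM) and mutant high Pi (142 ± 9.39 CPM) to mutant low Pi (188 ± 27.3 CPM), and the libraries of each group overlapped those of the next. Of JOX3 the order was the same, from 336 ± 75 to 605 ± 89.3 CPM, and neighbours again overlapped. For CYP94B3 the order ran from 2.31 ± 0.526 CPM in untreated Col-0 at high Pi to 5.41 ± 0.476 CPM in Col-0 at low Pi with MeJA, and groups with and without MeJA were mixed in between.

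Over the 12 group means of log2 CPM, the gene outside the set whose pattern was most like that of JOX3 was ILR1 (Pearson r = 0.9976), and that most like JOX2 was CYP705A1 (r = 0.9971). For ILL6 it was MEB1 (r = 0.9971), for CYP94B1 PBP1 (r = 0.995), for ST2A AT1G72180 (r = 0.9942), for IAR3 MVP1 (r = 0.9927) and for JOX4 LRR XI-23 (r = 0.9922), with AOC1 (r = 0.9908) and OPCL1 (r = 0.9899), genes of jasmonate synthesis, among the 3 nearest to IAR3 and JOX4. CYP94C1 was nearest to PA2 (r = 0.981). CYP94B3 was nearest to AIP2 (r = 0.914), and its correlation with other members was between 0.3491 and 0.589. These are descriptions over groups whose largest contrast is MeJA, which all such pairs share.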

How the data were processed

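RNA was measured in whole seedlings from poly(A) libraries, not stranded, made from 1000 ng of total RNA, per the labels' protocols. The deposited values are raw counts per locus made by the authors. Per the submitters' processing notes the build was TAIR10, and the tools named, with no role given, were HTSeq 0.6.1p1, TopHat2 2.1.1, cutadapt 1.3 and CASAVA 1.8. Without strand, reads of a gene and of an antisense partner cannot be told apart; no exon of another annotated gene overlaps a member.

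Counts were fitted with edgeR 4.0.16 (R 4.3.3, limma 3.58.1) by the robust quasi-likelihood test over 71 libraries and 20 comparisons of 2 groups plus 9 interactions, with terms for group and experiment, TMM scaling and filterByExpr at a minimum count of 10. This kept 18693 genes and left 58 residual degrees of freedom. A standard error is the log2 change over the square root of F. F compares fits with and without the change, so this is not the usual standard error of an estimate. For large changes from few reads it can be too small. JOX3 in Col-0 at high Pi had 0.48 with MeJA and 0.83 with flg22, against the same untreated libraries. CPM in the text are counts over the TMM-scaled library size. The pooled CPM of JOX1 and the ratios of rates of JOX4 instead use summed library totals without that scaling. The group terms were tried on simulated counts without experiment differences, with changes placed only in well-counted genes of Col-0 at high Pi with MeJA. That simulation does not cover changes in low-count members or differences between experiments. Alternatives were DESeq2 1.42.0, other scaling, no filter, the left-out library included, each experiment alone, a replicate block, no term for experiment and each replicate number left out.

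Genes named are all 10 members, up to 4 genes of each other list with the largest change past an adjusted p of 0.05 or else the 2 with the smallest p, the 3 genes nearest in pattern, and label checks; ST2B, ILL5, DAD1, JAZ8 and JAZ13 were named after their values were seen. Members and lists were chosen with earlier results of these data known. Coordinates, exon lengths and sequences come from the TAIR10.1 annotation, matched by locus for all 10. In 175 pairs of libraries of the same group the lowest chi-square per degree of freedom was 1.725, so no pair agreed within sampling noise. Counting intervals cover counting error only. Wherever members are counted at an unadjusted p under 0.05, the share of all genes at that threshold was not counted.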

Additional observations from a re-analysis of the deposited data

Results flagged for a closer look

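In 10 of 120 sets of one gene in one group, a library stood apart from the rest of its group by Dixon's test; chance gives about 1 in 20. Highest in their groups were JOX3 at 5.17 CPM in Col-0 high Pi flg22 A1 and 6.64 CPM in phr1 phl1 high Pi flg22 A3, JOX4 at 0.183 CPM in Col-0 low Pi untreated A2, CYP94B1 at 23.3 CPM in phr1 phl1 high Pi MeJA A2, CYP94B3 at 4.14 CPM in phr1 phl1 low Pi untreated A3, and CYP94C1 at 9.10 CPM in phr1 phl1 low Pi flg22 A2. The same held for ST2A at 21.7 CPM in Col-0 high Pi flg22 A3 and 25 CPM in Col-0 low Pi flg22 B3, and for JOX1 at 2.28 CPM in phr1 phl1 low Pi MeJA B2. JOX1 at 0.489 CPM in phr1 phl1 high Pi MeJA A3 was lowest in its group. The JOX1 and JOX4 values rest on 1 to 7 counts each.

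In the library left out, labelled phr1 phl1 high Pi untreated B1, 7 members stood above every other library without MeJA. JOX2 was at 237.9 CPM, JOX3 at 273 CPM, IAR3 at 107 CPM, ILL6 at 90.7 CPM, ST2A at 45.9 CPM, CYP94B1 at 11.1 CPM and JOX4 at 3.16 CPM. JOX2 at 237.9 CPM was close to the lowest MeJA library (238.4 CPM), and the other 6 lay within the range of the MeJA libraries. The left-out library was scaled together with all 72 libraries and the others without it, so the small gap for JOX2 gives no order.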

How the results depend on the processing

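Across all alternatives, MeJA raised 8 or 9 of the tested members in every background, also when each replicate number was left out (8 to 8, 8 to 9, 8 to 8 and 8 to 9). Without the filter JOX1 was tested as well, and it passed in both Col-0 backgrounds. RLE factors changed no call, DESeq2 changed 4 of 253 single values, no filter 3 and no experiment term 3 of 261. With DESeq2, 3 values came past the threshold and 1 no longer passed.

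Counts of members past the threshold moved as follows. A move from 2 to 3, or a smaller relative one, was taken as the same and is left out of this list. The share of all genes that passed in each setting is not set beside these counts, so they show only how the calls depend on processing. With flg22, from 0: in Col-0 at high Pi to 1 with DESeq2 and 1 in experiment A alone, in the mutant at high Pi to 3 with the left-out library and 1 in experiment B alone, and in the mutant at low Pi to 1 in A alone. Low against high Pi in untreated Col-0, from 2: 4 in A, 0 in B and 0 with the left-out library; in the untreated mutant, from 2: 0 in B, and 1 without the filter and 1 without the experiment term. With MeJA in Col-0, from 0: 1 in A; in the mutant, from 1: 2 in A, 0 in B and 0 with the left-out library. With flg22 in Col-0, from 2: 0 in B and 0 with the left-out library; in the mutant, from 2: 5 in A, 0 in B, 0 with the left-out library, and 1 each without the filter, without the experiment term and with the replicate block. Mutant against Col-0 at high Pi untreated, from 0: 4 with the left-out library and 1 in A; at low Pi with MeJA, from 2: 1 with DESeq2, 1 without the filter, 1 in A, 0 in B, 1 with the replicate block, 1 without the experiment term and 0 with the left-out library. Interactions, from 0: MeJA by Pi in Col-0 1 in A; in the mutant 1 in A and 1 with the left-out library; MeJA by genotype at high Pi 1 with the left-out library; Pi by genotype 1 in A and 1 with the left-out library.

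Leaving out one replicate number in turn gave, for low against high Pi, 0 to 3 (Col-0 untreated), 1 to 2 (mutant untreated), 0 to 0 (Col-0 MeJA), 0 to 1 (mutant MeJA), 1 to 2 (Col-0 flg22) and 0 to 3 (mutant flg22); for flg22, 0 to 1 in Col-0 at high Pi and in the mutant at low Pi and 0 in the others; for the genotypes, 1 to 2 at low Pi with MeJA and 0 in the others; and 0 for all interactions.

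Including the left-out library turned JOX2 with flg22 in the mutant at high Pi to -1.53 and JOX2 at low against high Pi in the untreated mutant to -1.51. The same comparisons of JOX3 became -4.80 and -4.78, the MeJA response of JOX3 in the mutant, low minus high Pi, became 5.10, and ST2A at low against high Pi in the untreated mutant became -0.23.

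The replicate numbers were not shared between groups in the data: over 66 pairs of groups the median correlation of same-numbered libraries was 0.006127 (-0.1256 to 0.1026). The replicate block moved 2 of 261 single calls to the other side of the threshold. Depth limits JOX1, JOX4 and untreated JOX3 most. It also limits CYP94B3 in Col-0 at high Pi with MeJA, with 31 counts over 6 libraries.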
